A study of Mus musculus with 8 samples.

Results

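The 6 transcription factor genes *Cdx1*, *Cdx2*, *Hnf4a*, *Hnf4g*, *Nr5a2* and *Isx* set and hold intestinal identity, and were followed here in Lgr5+ cells of the mouse small intestine. They were picked by symbol, as the 6 rows of the normalised expression table with these names, and joined by gene identifier to the raw count table, so they are 6 of the 53801 genes counted. All 8 libraries of the series were used. The rule used symbols only, but the genes and the lists below were chosen with earlier results of these data known.

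The study compared Lgr5+ cells in which Wnt signaling was switched on, with or without the histone methyltransferase Mll1 (gene symbol *Kmt2a*). There were 2 groups of 4 mice, labelled beta-cateninGOF with Mll1-/- (knockout) and beta-cateninGOF with Mll1+/- (control), written Mll1-/- and Mll1+/- below. Every mouse carried the β-catenin gain of function (GOF) allele, which makes a stabilised β-catenin after Cre recombination, so neither group is a control without this allele. Cre was expressed from the Lgr5-EGFP-IRES-CreERT2 allele, only in Lgr5+ cells and in a mosaic pattern, and the Mll1+/- controls lose 1 copy of *Mll1* through the same Cre. Mice of 4 to 6 weeks of age received tamoxifen at 50 mg per kg on 3 consecutive days, and Lgr5-GFP+ cells were sorted at day 10 and sequenced as small pools with a full-length polyA protocol without molecular identifiers. GFP marks cells with the Lgr5 allele and not recombination itself, so the sort could hold cells that kept their alleles.

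CDX1 and CDX2 are caudal-type homeobox proteins that install the intestinal program in the gut endoderm, and CDX2 also keeps gastric genes off in the adult intestine. HNF4A and HNF4G are paired nuclear receptors that act redundantly in the enterocyte lineage, where they drive brush border, lipid handling and fatty acid oxidation genes. NR5A2 (LRH-1) is a nuclear receptor of the crypt base linked to cell cycle genes and local steroid synthesis, and ISX is a homeobox repressor that answers to retinoic acid and holds down vitamin A and lipid uptake genes. MLL1 methylates lysine 4 of histone H3 and carries a CXXC domain that binds unmethylated CpG dinucleotides, for which reason the CpG content of the promoters is given with the genes.

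Positions are those of the count table (mm10, Ensembl 92). *Cdx2* (ENSMUSG00000029646) lies on chromosome 5 from 147300805 to 147307270 on the minus strand. *Hnf4a* (ENSMUSG00000017950) lies on chromosome 2 from 163506808 to 163572910, *Hnf4g* (ENSMUSG00000017688) on chromosome 3 from 3508030 to 3658052, *Nr5a2* (ENSMUSG00000026398) on chromosome 1 from 136842571 to 136960448 and *Isx* (ENSMUSG00000031621) on chromosome 8 from 74873173 to 74893506. *Cdx1* is ENSMUSG00000024619. No exon of these genes overlapped an exon of another gene, so the unstranded counting could not mix them with a neighbour. Of the words of 31 bases in their transcripts, none of *Cdx1*, *Hnf4a* or *Isx* occurred in another gene, against 0.115% for *Hnf4g*, 0.269% for *Cdx2* and 2.09% for *Nr5a2*, the last shared with the gene models Gm17743 and Gm18981.

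RefSeq promoters (GRCm38.p6) were taken for *Cdx2*, *Hnf4a*, *Isx* and *Nr5a2*, with 2 start sites each for *Hnf4a* and *Nr5a2*. *Cdx1* was left out of this step, and no promoter was found for *Hnf4g*. The 250 bases before 4 of these starts are shown because they span the range of CpG content among these windows and hold most of the motif matches described after them. They cover chr5:147307250-147307499 on the minus strand (*Cdx2*), chr2:163546905-163547154 on the plus strand (*Hnf4a*, downstream start), chr8:74872924-74873173 on the plus strand (*Isx*) and chr1:136960449-136960698 on the minus strand (*Nr5a2*, upstream start). Each reads 5′ to 3′ toward the start, and capitals mark CpG.
Cdx2: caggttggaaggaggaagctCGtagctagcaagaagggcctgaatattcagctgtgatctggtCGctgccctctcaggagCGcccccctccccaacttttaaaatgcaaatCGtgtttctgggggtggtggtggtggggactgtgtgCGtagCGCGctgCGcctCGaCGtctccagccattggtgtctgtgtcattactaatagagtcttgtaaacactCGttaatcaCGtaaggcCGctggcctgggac
Hnf4a: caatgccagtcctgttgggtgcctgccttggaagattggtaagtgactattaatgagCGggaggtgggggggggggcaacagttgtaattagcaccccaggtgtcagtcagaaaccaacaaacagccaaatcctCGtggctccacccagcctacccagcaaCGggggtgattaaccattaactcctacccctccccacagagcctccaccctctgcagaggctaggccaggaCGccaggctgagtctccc
Isx: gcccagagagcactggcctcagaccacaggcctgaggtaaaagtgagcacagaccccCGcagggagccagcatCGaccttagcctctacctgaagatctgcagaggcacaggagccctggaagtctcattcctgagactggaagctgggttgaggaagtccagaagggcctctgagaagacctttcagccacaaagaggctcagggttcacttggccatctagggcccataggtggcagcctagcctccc
Nr5a2: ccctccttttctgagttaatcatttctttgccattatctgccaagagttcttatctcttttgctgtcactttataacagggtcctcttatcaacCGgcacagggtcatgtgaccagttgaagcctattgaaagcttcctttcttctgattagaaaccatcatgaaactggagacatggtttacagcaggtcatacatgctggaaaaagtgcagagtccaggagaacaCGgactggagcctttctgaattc

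The *Cdx2* window held 13 CpG, and 31.5% of all 32851 such windows in the source held as many or more. The others held fewer: 4 for the *Hnf4a* downstream start and 3 for its upstream start, 2 for *Isx*, and 2 and 6 for the upstream and downstream starts of *Nr5a2*, against a median of 6 over all windows. Annotated GENCODE exons of these genes covered 49 bases of the *Hnf4a* upstream window and 38 of its downstream window. They also covered 21 bases of the *Cdx2* window, 1 of the *Isx* window and 0 of the *Nr5a2* windows. A set of 6 short motifs was searched on both strands, with no overlap between matches of different motifs in these windows. The letters GTTAAT, part of an HNF1 site, stood 2 times on the minus strand of the *Hnf4a* downstream window, at 81 to 76 and 74 to 69 bases before the start, once in *Cdx2* at 30 to 25 bases and once in the *Nr5a2* upstream window at 236 to 231 bases, and were in 6.43% of all windows. The GATA letters AGATAA stood 2 times in the *Nr5a2* upstream window and once in the *Hnf4a* upstream window (not shown), 52 to 47 bases before that start, and were in 9.99% of all windows. The CDX letters TTTATG, the HNF4 letters CAAAGTC, the NR5A letters AAGGTCA and the TCF/LEF letters ATCAAAG were in none of the 6 windows of these 4 genes, and in 10.8%, 3.84%, 4.08% and 3.21% of all windows. These are matches of letters only, and neither methylation nor factor binding is among the values used here.

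The libraries held 14468751 to 16847793 counts on genes, and 15983 to 17266 genes had at least 10 counts. Mitochondrial genes took 17.1% to 27.1% of the counts in Mll1-/- and 23.3% to 30.1% in Mll1+/-. The part of this share in the results was not tested. The epithelial surface gene *Epcam* stood at 1516 ± 205 CPM (counts scaled to library size with TMM factors) in Mll1-/- and 1356 ± 111 in Mll1+/- (SD, n = 4), and *Lgr5* at 261 ± 19.9 and 271 ± 41.0, so the markers of the sort were present in both groups. Counts over the whole *Kmt2a* gene were not lower in the Mll1-/- libraries, at 63.5 ± 10.7 against 53.8 ± 7.45 CPM (adjusted p = 0.710, edgeR quasi-likelihood test), and counts on exons that a floxed allele keeps cannot check a deletion. Mll1-/- replicate 3 stood apart: its highest Spearman correlation with another library was 0.909, against 0.947 to 0.966 for the other 7, and the values of the 6 factors without it are given beside each. Xist exceeded the Y-linked genes in 3 of the 4 Mll1+/- libraries and in 1 of the 4 Mll1-/- libraries, and Mll1-/- replicate 3 held both about equally, so sex and genotype were not balanced. Labels do not give sex, and its part in the results was tested only as a covariate in the closing section.

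Over all genes, 14 of the 16445 tested (0.0851%) differed between the genotypes at an adjusted p under 0.1 by edgeR's quasi-likelihood test, 8 higher in Mll1-/- (0.0486%) and 6 lower (0.0365%). With upper quartile scaling the split was 3 higher and 5 lower. None of the 6 factors was among them. None had an unadjusted p under 0.05, which 9.15% of all genes had. DESeq2 called 405 genes (2.46%, 1.48% higher and 0.979% lower) and limma-voom 103 (0.626%, 0.341% higher and 0.286% lower), again with none of the 6. Without Mll1-/- replicate 3 edgeR called 0.262% of genes, and with the series of library numbers described below as a block it called 0, with 1642 genes at an unadjusted p under 0.05. The libraries of the genotypes overlapped for all 6, against 6.28% of all genes with no overlap. There were 3 factors above 0 and 3 below 0 in log2 fold change (Mll1-/- minus Mll1+/-, as throughout), and the median over all genes was 0.0076. Fewer cells of a type in a pool and less RNA per cell cannot be told apart in such libraries.

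**Figure D1:**
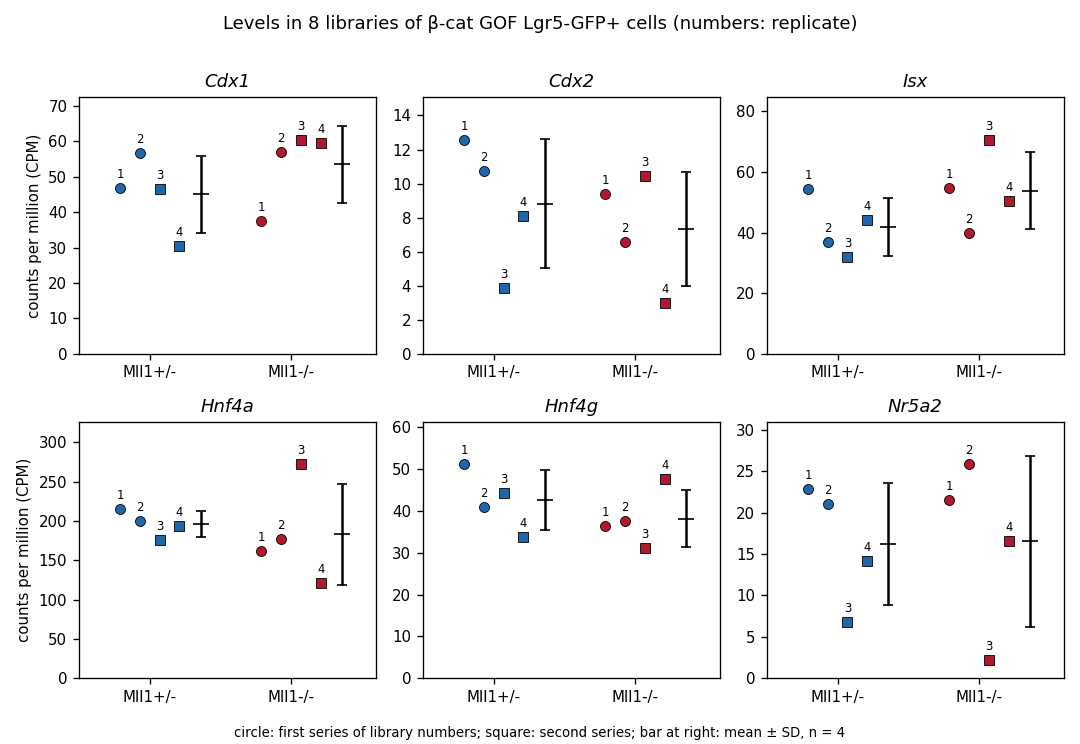
Levels of the 6 genes in CPM (y axis, TMM scaled) for each library, with Mll1+/- in blue and Mll1-/- in red, replicate numbers above the points and mean ± SD (n = 4) at the right of each group. The groups overlap for every gene, and *Nr5a2* in Mll1-/- replicate 3 is at 2.16 CPM while *Hnf4a* in the same library is at 272 CPM.

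*Cdx1*, the caudal factor of the crypt, was at 37.4, 57.0, 60.4 and 59.5 CPM in Mll1-/- replicates 1 to 4 and at 46.7, 56.6, 46.4 and 30.4 CPM in Mll1+/- replicates 1 to 4. Of the Mll1-/- libraries, 3 were above every Mll1+/- library, and Mll1-/- replicate 1 was below 3 of the 4 controls. The log2 fold change was 0.25 (SE 0.23, 95% interval -0.26 to 0.76, adjusted p = 0.785 by edgeR). As a fold this interval ran from 0.835 to 1.69, so a larger change in either direction lay outside it. It was 0.19 on the log2 scale without Mll1-/- replicate 3 and 0.098 without Mll1+/- replicate 4.

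*Cdx2*, the caudal factor that holds intestinal against gastric fate, was at 9.38, 6.55, 10.4 and 2.96 CPM in the Mll1-/- libraries and at 12.6, 10.8, 3.85 and 8.07 CPM in the Mll1+/- libraries. Each genotype had 1 low library, Mll1-/- replicate 4 with 45 reads and Mll1+/- replicate 3 with 48 reads, and the other 6 libraries had 113 to 210. The log2 fold change was -0.27 (SE 0.46, 95% interval -1.30 to 0.77, adjusted p = 0.901 by edgeR). In folds the interval reached from 0.405 to 1.71, so a fall to the lower or a rise to the upper of these folds was not separable from no change at this spread. On the log2 scale it was -0.48 without Mll1-/- replicate 3, -0.51 without Mll1+/- replicate 3, -0.046 without Mll1+/- replicate 1 and -0.0044 without Mll1-/- replicate 4.

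*Hnf4a*, the receptor at the head of the enterocyte program, was at 161, 177, 272 and 121 CPM in the Mll1-/- libraries, against 215, 200.5, 176 and 193 CPM in the Mll1+/- libraries. The controls lay close together (196 ± 16.2), whereas the Mll1-/- libraries held both the highest and the lowest value of the series (183 ± 64.0, SD, n = 4). The log2 fold change was -0.10 (SE 0.22, 95% interval -0.60 to 0.39, adjusted p = 0.926 by edgeR). Without Mll1-/- replicate 3 it was -0.36, the only value of any factor in any setting with an unadjusted p under 0.05, with an adjusted p of 0.525 by edgeR. Without Mll1-/- replicate 4 it turned to 0.055.

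*Hnf4g*, the partner receptor, was at 36.3, 37.7, 31.2 and 47.5 CPM in the Mll1-/- libraries and at 51.2, 40.9, 44.4 and 33.9 CPM in the Mll1+/- libraries. The 2 Mll1-/- libraries with extreme *Hnf4a* were also the extremes of their genotype for *Hnf4g*, in the opposite order. The log2 fold change was -0.16 (SE 0.19, 95% interval -0.58 to 0.27, adjusted p = 0.852 by edgeR), which as a fold ran from 0.668 to 1.205. It was -0.072 without Mll1-/- replicate 3, -0.057 without Mll1+/- replicate 1, -0.25 without Mll1+/- replicate 4 and -0.28 without Mll1-/- replicate 4.

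*Nr5a2*, the nuclear receptor of the crypt base, varied most. It was at 21.5, 25.8, 2.16 and 16.6 CPM in the Mll1-/- libraries and at 22.9, 21.02, 6.74 and 14.2 CPM in the Mll1+/- libraries. Mll1-/- replicate 3 had 40 reads and Mll1+/- replicate 3 had 84, against 220 to 446 in the other 6. The log2 fold change was 0.03 (SE 0.63, 95% interval -1.40 to 1.45, adjusted p = 0.995 by edgeR), so folds from 0.380 to 2.73 were left inside the interval. Without Mll1-/- replicate 3 the log2 fold change was 0.39, and without Mll1-/- replicate 2 it was -0.27.

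*Isx*, the retinoic acid responsive repressor, was at 54.7, 39.7, 70.6 and 50.3 CPM in the Mll1-/- libraries and at 54.2, 37.0, 31.9 and 44.2 CPM in the Mll1+/- libraries. The highest value was in Mll1-/- replicate 3, and Mll1+/- replicate 1 was above 2 of the Mll1-/- libraries. The log2 fold change was 0.36 (SE 0.22, 95% interval -0.14 to 0.87, adjusted p = 0.667 by edgeR), the smallest unadjusted p among the 6 (0.139). Without Mll1-/- replicate 3 it was 0.20. Exact two-sided permutation tests of mean log2 CPM over the 70 assignments gave p from 0.2 to 0.857 for the 6 genes and adjusted p from 0.72 to 0.857, with 0.0286 the smallest p possible.

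**Figure D2:**
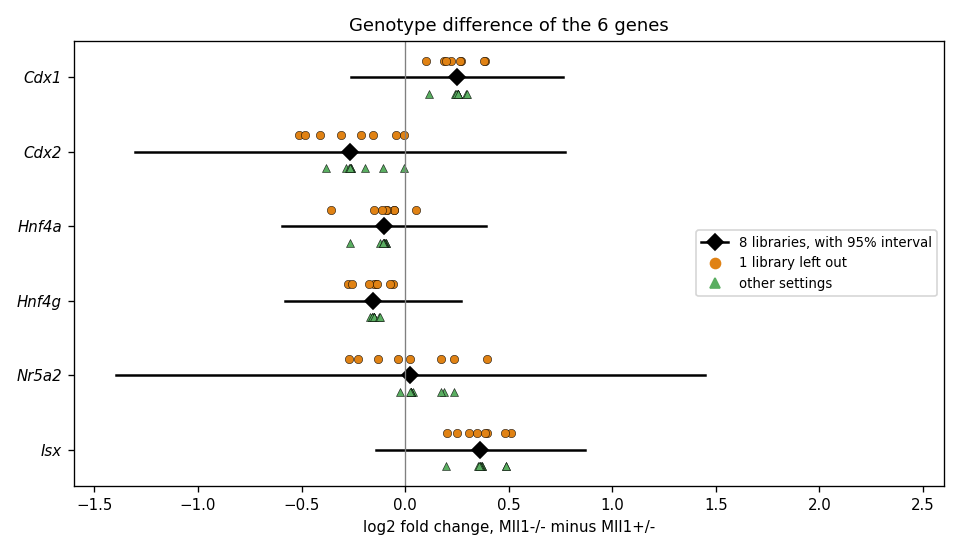
Log2 fold change of each gene (x axis, Mll1-/- minus Mll1+/-) from all 8 libraries with its 95% interval (black), with 1 library left out (orange) and under the other settings (green). Every interval spans 0, *Nr5a2* and *Hnf4a* have values on both sides, and the other 4 genes keep their side.

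The numbers in the count table's column names fall into 2 series, with 2 libraries of each genotype in each, and what the series mark is not stated. Within the first and the second series the differences in mean log2 CPM were -0.15 and 0.67 for *Cdx1*, -0.56 and -0.00077 for *Cdx2*, -0.29 and -0.026 for *Hnf4a*, -0.30 and -0.0094 for *Hnf4g*, 0.10 and -0.68 for *Nr5a2* and 0.06 and 0.66 for *Isx*. *Cdx1* and *Nr5a2* thus had opposite signs in the 2 series. The interaction of genotype with series had adjusted p from 0.767 (*Cdx1*) to 0.986 (*Nr5a2*) by edgeR, 0 of 16445 genes (0%) passed that test, and none of the 6 had an unadjusted p under 0.05 in it (lowest 0.102).

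Levels were compared between the genes per kilobase of exon. *Hnf4a* was at 39.2 ± 9.07 CPM per kb, *Cdx1* at 28.2 ± 6.31, *Isx* at 26.7 ± 6.87, *Hnf4g* at 15.4 ± 2.62, *Cdx2* at 3.57 ± 1.50 and *Nr5a2* at 2.78 ± 1.40 (SD, n = 8). Between neighbours, *Isx* was above *Hnf4g* and *Hnf4g* above *Cdx2* in 8 of 8 libraries, *Hnf4a* above *Cdx1* in 7, *Cdx2* above *Nr5a2* in 6 and *Cdx1* above *Isx* in 4. The ranges over the 8 libraries stayed apart for *Hnf4g* and *Cdx2* and overlapped for the other neighbours. *Cdx1* with *Isx* and *Cdx2* with *Nr5a2* had means closer than either SD. The Wnt target *Lgr5* on the same scale ran from 20.9 to 30.0 CPM per kb.

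**Figure D3:**
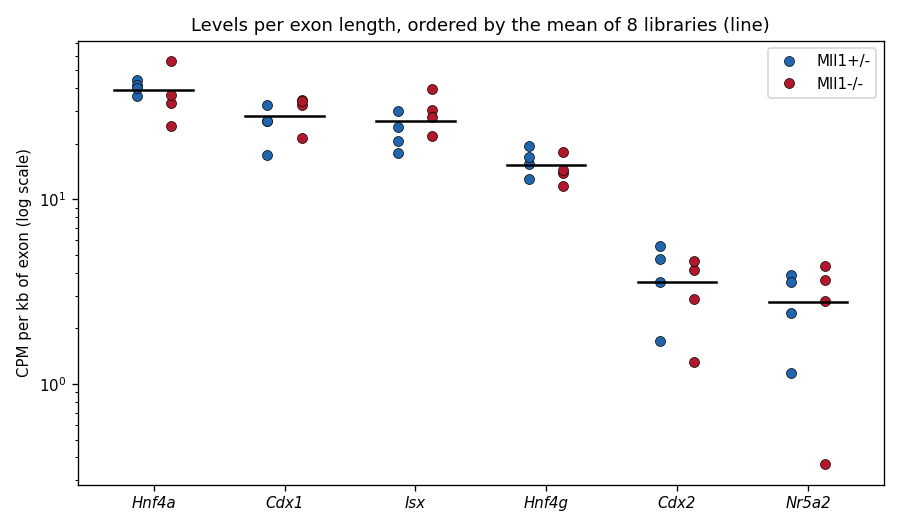
Level per kb of exon (y axis, log scale) in each library, with Mll1+/- in blue, Mll1-/- in red and the mean of 8 as a line. *Hnf4a*, *Cdx1* and *Isx* overlap at the top, *Hnf4g* lies below them, and *Cdx2* and *Nr5a2* lie lowest, with 1 point of *Nr5a2* at 0.367 CPM per kb.

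Within each paralog pair, 1 gene was higher in all 8 libraries. *Hnf4a* exceeded *Hnf4g* per kb in every library, by 1.38 to 4.74 times, and *Cdx1* exceeded *Cdx2* by 4.81 to 26.0 times. The *Hnf4a* to *Hnf4g* ratio was 2.16 to 3.10 in the 4 controls, and both extremes came from Mll1-/- libraries, 4.74 in replicate 3 and 1.38 in replicate 4. The *Cdx1* to *Cdx2* ratio was 26.0 in Mll1-/- replicate 4 and 15.6 in Mll1+/- replicate 3, the libraries low in *Cdx2*. Neither ratio differed between genotypes by an exact two-sided permutation test of log2 ratios (n = 4 and 4, p = 1 and 0.4, adjusted 1 and 0.8).

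The spread between libraries differed between the factors. The coefficient of variation over the 8 libraries was 50.6% for *Nr5a2*, 42.2% for *Cdx2*, 25.7% for *Isx*, 23.1% for *Hnf4a*, 22.4% for *Cdx1* and 17.1% for *Hnf4g*. Against all genes within 2-fold of the same mean level, *Nr5a2* varied more than 88.6% and *Hnf4a* more than 79.4%, whereas *Cdx2* exceeded 61.8%, *Isx* 62.0%, *Cdx1* 50.1% and *Hnf4g* 23.4%. The larger spread of *Cdx2* was thus near the middle for its level.

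Of the 15 pairs of factors, *Cdx2* and *Hnf4a* moved together most closely over the 8 libraries. Their log2 CPM had Pearson r = 0.75 (exact permutation p = 0.024, adjusted over 15 pairs 0.366) and Spearman rho = 0.79 (exact permutation p = 0.028, adjusted 0.419), which does not pass the correction. With the genotype means taken off r was 0.74, and within the 2 series of 4 libraries it was 0.65 and 0.91. Without the libraries farthest in *Cdx2* (Mll1-/- replicate 4 and Mll1+/- replicate 3) r was 0.49, so it rests in part on these low-*Cdx2* libraries. The other 14 pairs had r between -0.53 (*Hnf4a* with *Nr5a2*) and 0.46 (*Hnf4g* with *Nr5a2*), with exact permutation p of 0.213 or more and adjusted p of 0.757 or more. *Hnf4a* with *Nr5a2* went from -0.53 to 0.12 without Mll1-/- replicate 3.

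Protein-coding genes of at least 5 CPM with the most similar pattern over the 8 libraries were searched among 9444 genes, so high values are a product of the search and are given as a description. They were *Phc1* (r = 0.95, rho = 1) and *Ambra1* (r = 0.94) for *Cdx1*, *Adgrg6* and *Tmbim6* (r = 0.97 and 0.96) for *Cdx2*, and *Ankrd40* (r = 0.98, rho = 1) and *Zfp12* (r = 0.97) for *Hnf4a*. For *Hnf4g* they were *Cttnbp2* and *Slc23a4* (r = 0.97 and 0.95), for *Nr5a2* *Otud7b* and *Zfand3* (r = 0.99 and 0.98), and for *Isx* *Tada2a* and *Laptm4a* (r = 0.99 and 0.97, the latter with rho = 1). All share the libraries and their scaling with the factor.

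The genes around the factors were taken in 6 lists from general knowledge, chosen with earlier results of these data known. The list names are labels, and no binding or target data were used. Each list is set beside the share over all genes. By edgeR, 5.4% of genes had an unadjusted p under 0.05 with a higher level in Mll1-/- and 3.75% with a lower one. No overlap between the genotypes was seen for 6.28% of genes. DESeq2 called 1.48% of genes higher and 0.979% lower, and limma-voom 0.341% higher and 0.286% lower. The partner transcription factors, which work with CDX and HNF4 or share their targets, had 9 of 21 tested genes above and 12 below, with a median log2 fold change of -0.15. None was called by edgeR, and 2 had an unadjusted p under 0.05, both lower in Mll1-/- and without overlap, as 2.94% of all genes were. *Onecut2*, a cut homeobox factor of the proximal intestine, was at 38.2, 50.4, 83.0 and 33.4 CPM in the Mll1-/- libraries, and at 192, 184, 111 and 179.9 CPM in the Mll1+/- libraries. Its log2 fold change was -1.70 (SE 0.30, adjusted p = 0.139 by edgeR). *Gata4*, which marks the proximal small intestine, was at 6.196, 4.52, 19.4 and 3.55 CPM against 35.5, 36.3, 29.3 and 37.8 CPM, with a log2 fold change of -2.04 (SE 0.50, adjusted p = 0.251 by edgeR). Both were called by DESeq2, by limma-voom, and by edgeR without Mll1-/- replicate 3. Over all 8 libraries edgeR also called *Onecut2* without a filter, where 0.0574% of genes were called lower. It did so too with at least 10 counts in every library, where 34 of 13066 genes were called. Of the most abundant partners, *Ehf*, *Klf5* and *Sox9* had log2 fold changes of -0.16, -0.22 and -0.15 (adjusted p 0.681, 0.710 and 0.868 by edgeR).

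Of the 27 enterocyte genes listed as bound by HNF4, 22 were tested, with 9 above, 13 below and a median of -0.15. This median was -0.44 without Mll1-/- replicate 3, -0.34 without Mll1+/- replicate 2 and -0.057 without Mll1+/- replicate 4. None was called by edgeR, 1 had an unadjusted p under 0.05 above and 6 below, and 4 had no overlap, as 6.28% of all genes had none. *Apoa1*, an apolipoprotein of chylomicrons, was at 13.6, 10.2, 16.2 and 11.8 CPM in Mll1-/- and 24.7, 37.3, 29.8 and 24.4 CPM in Mll1+/- (log2 fold change -1.16, SE 0.23, adjusted p = 0.166 by edgeR). *Fabp2*, the intestinal fatty acid binding protein, was at 91.0 ± 19.2 against 173 ± 30.5 CPM (-0.93, SE 0.18, adjusted p = 0.172 by edgeR). *Vil1* went the other way, at 179 ± 21.7 against 134 ± 10.8 CPM (0.42, adjusted p = 0.371 by edgeR). *Dpp4* and *Eps8* had log2 fold changes of 0.20 and 0.04. *Anpep*, singled out after its value was seen as the fourth gene without overlap, was at 17.7 ± 5.53 against 42.7 ± 7.59 CPM (-1.27, adjusted p = 0.195 by edgeR). DESeq2 called *Anpep*, *Apoa1*, *Fabp1* and *Fabp2*, and limma-voom *Anpep* and *Apoa1*, all lower in Mll1-/- (0.979% and 0.286% of all genes were called lower by these tools), and edgeR called *Apoa1* without Mll1-/- replicate 3.

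All 22 fatty acid oxidation genes were tested, and 17 lay below and 5 above, with a median of -0.24. None was called by edgeR, 5 had an unadjusted p under 0.05, all lower in Mll1-/-, and 2 lay lower without overlap, as 2.94% of all genes did. *Ehhadh*, a peroxisomal enzyme, was at 12.1 ± 2.69 CPM in Mll1-/- and 24.4 ± 6.68 CPM in Mll1+/- (-1.01, SE 0.27, adjusted p = 0.306 by edgeR), and was called by DESeq2. *Acadm*, the medium-chain acyl-CoA dehydrogenase, was at 105, 104, 112 and 104 CPM against 135, 124, 124 and 134 CPM, a small difference without overlap (-0.28, SE 0.10, adjusted p = 0.479 by edgeR). *Etfa*, *Hadh* and *Acaa2*, the most abundant, had -0.37, -0.46 and -0.43 (adjusted p 0.499, 0.532 and 0.584 by edgeR). *Hadhb*, the fifth gene with an unadjusted p under 0.05, was noted after its value was seen at -0.43.

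Of 14 tested CDX target genes, 6 lay above and 8 below (median -0.09, and -0.25 without Mll1+/- replicate 3), none was called by edgeR, and 2 above and 1 below had an unadjusted p under 0.05. Among the most abundant, *Lgals4* (galectin-4) had a log2 fold change of -0.08, *Cdh17* (liver-intestine cadherin) 0.07 and the chloride channel *Cftr* -0.27 (adjusted p 0.916, 0.913 and 0.601 by edgeR). *Guca2a*, which encodes guanylin and is also in the goblet cell list, was at 49.7, 75.0, 63.8 and 103.6 CPM in Mll1-/- and at 13.3, 32.4, 11.5 and 21.5 CPM in Mll1+/- (1.89, SE 0.36, adjusted p = 0.165 by edgeR), the only gene of the list without overlap. *Abcb1a*, a drug efflux pump, was at 37.3, 42.9, 16.5 and 44.6 CPM against 17.2, 12.2, 15.4 and 15.5 CPM (1.23, SE 0.30, adjusted p = 0.251 by edgeR). DESeq2 and limma-voom called both, and edgeR called *Abcb1a* without Mll1-/- replicate 3. Over all 8 libraries edgeR called *Guca2a* without a filter, where 0.0599% of genes were called higher. It also called *Guca2a* with at least 10 counts in every library, where 34 of 13066 genes were called. *Sis*, sucrase-isomaltase, was noted after its value was seen as the gene below, at 2.16 ± 1.72 against 7.83 ± 6.42 CPM.

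Of 8 tested ISX and NR5A2 target genes, 6 lay above and 2 below (median 0.39, and 0.13 without Mll1-/- replicate 1 or 0.63 without Mll1-/- replicate 4), none was called by edgeR, and 2 above had an unadjusted p under 0.05. These were the G1 cyclins: *Ccnd1* at 50.2, 43.2, 54.1 and 46.8 CPM in Mll1-/- against 34.9, 30.4, 37.6 and 23.6 CPM (0.62, SE 0.18, adjusted p = 0.365 by edgeR), and *Ccne1* at 15.6, 12.7, 28.6 and 15.7 CPM against 5.09, 9.84, 8.98 and 12.3 CPM (1.00, SE 0.35, adjusted p = 0.460 by edgeR). Neither overlapped between genotypes, as 3.34% of all genes did not in this direction, and DESeq2 called *Ccnd1*. The sterol transporters *Abcg5* and *Abcg8* had -0.56 and 0.15. *Bco1*, *Il1rn*, *Cyp11a1* and *Scarb1* had low group means, from 1.11 to 2.96 CPM. The list joins targets of the repressor ISX with those of NR5A2, so its median describes neither factor alone. *Ccnd1* is also a Wnt target, and every mouse carried the β-catenin GOF allele.

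Most gastric genes had few or no reads. Of 16 genes found among those counted, 4 could be tested, and *Gkn2*, *Psca* and *Tff1* had 0 reads in all 8 libraries. The one abundant gene of the list was *Gkn3*, at 183 ± 15.4 CPM in Mll1-/- and 261 ± 51.8 CPM in Mll1+/-. It was lower in Mll1-/- without overlap (-0.51, SE 0.15, adjusted p = 0.352 by edgeR) and was called by DESeq2. Whether its level in these Lgr5+ cells stands for gastric expression was not tested. *Gif* and *Pgc* stood at 3.15 ± 2.27 and 1.97 ± 3.27 CPM in Mll1-/- and at 5.16 ± 2.39 and 4.63 ± 1.44 CPM in Mll1+/-, and *Pgc* was called lower by edgeR without Mll1-/- replicate 3, where it was at 6.87 CPM. The low-*Cdx2* libraries had summed gastric levels of 207 CPM (Mll1-/- replicate 4) and 349.5 CPM (Mll1+/- replicate 3), against 168 to 248 CPM in the other 6, and most of each sum was *Gkn3*. The sums thus follow *Gkn3* and do not show the gastric genes as a set.

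**Figure D4:**
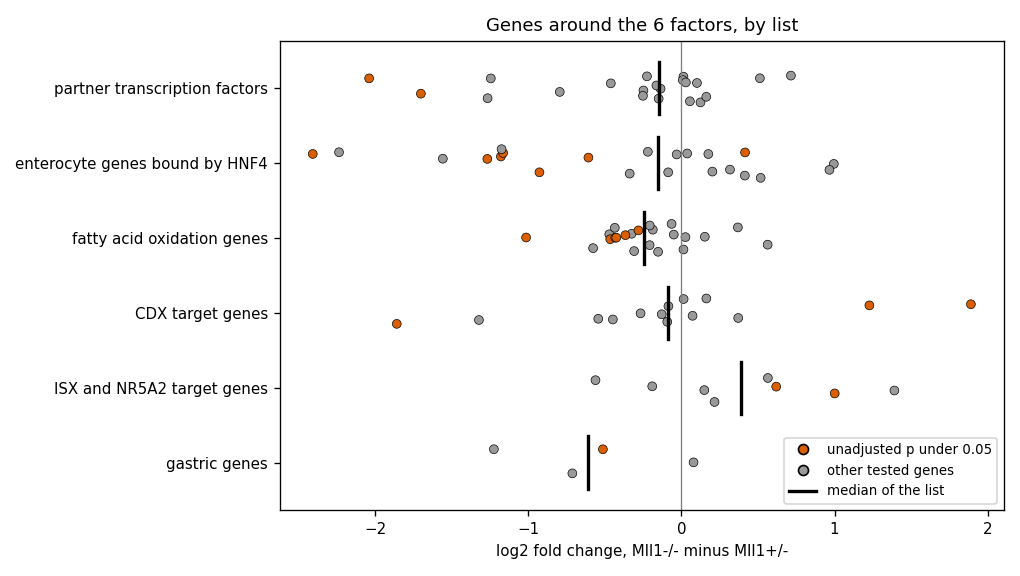
Log2 fold change (x axis, Mll1-/- minus Mll1+/-) of each tested gene of the 6 lists, with genes of an unadjusted p under 0.05 in orange and list medians as black lines. Fatty acid oxidation genes lie mostly below 0. *Fabp1*, *Slc2a2*, *Gata4*, *Guca2a* and *Onecut2* are among the points farthest from 0.

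Markers of regions and of other cells were summed beside these lists, and none was called by edgeR over the 8 libraries. The 9 proximal small intestine markers summed to 28.3 to 219 CPM in Mll1-/- and 312 to 706 CPM in Mll1+/- (5 of 6 tested below), mostly from *Adh1*, and *Pdx1* was below the level of testing. The 12 intestinal stem cell markers summed to 12380 to 19414 and 24778 to 29438 CPM, mostly from *Olfm4*, with 4 genes above, 8 below and a median log2 fold change of -0.13. *Olfm4* had a log2 fold change of -0.77 and *Lgr5* -0.06 (adjusted p 0.200 and 0.933 by edgeR), and *Axin2*, noted after its value was seen, lay above without overlap at 0.44 (adjusted p = 0.384 by edgeR). Goblet markers lay above in 8 of 10 tested genes (698.6 to 1297 against 615 to 812.5 CPM), Paneth markers below in 8 of 10 (1594 to 5089 against 3146 to 4952 CPM) and enteroendocrine markers below in 7 of 7 (7.82 to 12.2 against 11.8 to 74.7 CPM). Ileum markers summed to 16.2 to 62.4 and 16.2 to 29.7 CPM, colon markers to 8.17 to 18.6 and 7.001 to 13.9 CPM with *Car1* at 0, and tuft cell markers to 3.84 to 9.67 and 2.57 to 3.45 CPM with *Il25* at 0. Immune markers summed to 1.57 to 7.82 CPM and stromal and endothelial markers to 5.55 to 11.8 CPM over both genotypes, with no gene of either list at 0 in all libraries. These sums are of the size of the *Cdx2* level. DESeq2 called 6 goblet markers, all higher, 5 Paneth markers, 1 higher and 4 lower, and *Olfm4*, *Slc12a2*, *Chgb* and *Fabp1*, all lower. Of all genes, DESeq2 called 1.48% higher and 0.979% lower. Limma-voom called *Olfm4*, *Prom1* and *Slc12a2* lower (0.286% of all genes) and *Guca2a* and *Mmp7* higher (0.341% of all genes). EdgeR called *Chgb* lower without Mll1-/- replicate 3, and without a filter, where 0.117% of genes were called (0.0599% higher and 0.0574% lower), it called *Chgb*, *Slc12a2* and *Defa17* lower and *Guca2a*, *Muc2* and *Mmp7* higher. These genes were named after their calls were seen. The part of regional origin and of cell types in the levels of the 6 factors and their lists was not tested.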

How the data were processed

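RNA was measured by Smart-seq2 in sorted pools of Lgr5-GFP+ cells from 8 mice, 4 per genotype, taken from the labels. Per the study's methods and the submitters' processing notes, the authors aligned reads with GSNAP to mm10 and counted uniquely mapped reads per gene, without regard to strand, with featureCounts 1.6.3 on Ensembl 92. The deposited counts are raw whole numbers for 53801 genes and 92 spike-ins. The deposited normalised table of 25485 genes holds a signal, the counts divided by 1 DESeq2 1.22.2 size factor per library (0.811 to 1.17), by the authors, and it was used for symbols and gene choice only.

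Counts were tested with edgeR 4.0.16 in R 4.3.3 (TMM, filterByExpr with a minimum of 10 counts, quasi-likelihood F test, genotype only, Benjamini-Hochberg over 16445 genes, threshold 0.1 as in the study). DESeq2 1.42.0 and limma 3.58.1 (voom) were alternatives. Spike-ins stayed out of library sizes. The biological coefficient of variation was 0.435, and 3 counts equal 0.162 to 0.241 CPM. Intervals come from the fit, exact tests from enumeration in scipy 1.17.1. The scripts were tested on simulated data. Promoter windows are from RefSeq (GRCm38.p6) and transcript words and overlaps from GENCODE M21. The members and lists were chosen with earlier results of these data known. Named from each list were the 3 genes of highest mean CPM and the 2 of smallest p, plus any gene called. Libraries are named by genotype and a replicate number in accession order. Reads have no molecular identifiers, so floors cover counting error only.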

Additional observations from a re-analysis of the deposited data

Results flagged for a closer look

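In the 74 groups of 4 libraries checked over the named genes, 7 held a library far from the other 3 by Dixon's ratio, and chance gives about 1 in 20. Among the 6 factors it was *Cdx1* in Mll1-/- replicate 1, at 37.4 CPM against 57.0 to 60.4 CPM. In the lists, *Gata4* was at 19.4 CPM in Mll1-/- replicate 3 against 3.55 to 6.196, and *Pgc* at 6.87 CPM in the same library against 0.116 to 0.591. *Onecut2* was at 111 CPM in Mll1+/- replicate 3 against 179.9 to 192, and *Gkn3* at 339 CPM in that library against 233 to 238. *Gif* was at 8.72 CPM in Mll1+/- replicate 4 against 3.65 to 4.25. *Kmt2a* was at 64.9 CPM in Mll1+/- replicate 2 against 48.9 to 51.2.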

How the results depend on the processing

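None of the 6 factors was called under any setting run (adjusted p 0.484 or more). *Cdx1* and *Isx* stayed above 0, and *Cdx2* and *Hnf4g* below 0, in all 18 alternative fits, with ranges of 0.098 to 0.38, 0.20 to 0.51, -0.51 to -0.0044 and -0.28 to -0.057, and *Cdx2* was -0.0074 with the series block and the Xist covariate together. *Hnf4a* was -0.36 to 0.055 with 1 library left out. *Nr5a2* was -0.27 to 0.39 with 1 library left out, -0.027 with the series of library numbers as a block and -0.30 as a difference of means with a prior count of 0.5. The number of genes called, 14 in the report, was 8 with upper quartile scaling, 405 by DESeq2, 103 by limma-voom, 47 without a filter and 34 with at least 10 counts in every library. It was 0 over the genes the authors kept, 0 with the series block, 0 with a covariate of Xist over Y-linked genes and 0 with both, the last added after the data were seen, although 2292, 1642, 1616 and 1856 genes had an unadjusted p under 0.05. With 1 library left out it was 0 to 45, with 45 without Mll1-/- replicate 3, 2 without Mll1-/- replicate 1 and 0 otherwise. The median of the genes listed as bound by HNF4 was -0.33 by limma-voom, -0.60 without a filter and -0.61 over the authors' genes. It was -0.44 to -0.057 with 1 library left out. The gastric median went from -0.61 to 0.084 without a filter, which adds genes of few reads. With 1 library left out, the partner median was -0.23 to -0.025, that of the CDX targets -0.25 to -0.039, of the ISX and NR5A2 targets 0.13 to 0.63, of fatty acid oxidation genes -0.33 to -0.16 and of gastric genes -0.74 to -0.40. With the series block no gene of any list was called. The sign of r turned for *Cdx1* with *Cdx2* (0.0058) and *Hnf4g* with *Isx* (0.11) without TMM, and for *Cdx1* with *Isx* (-0.15) without genotype means, and the cause of these changes was not tested. No paired analysis was possible because the labels give no replicate numbers that the genotypes share. *Cdx2* and *Nr5a2* had as few as 45 and 40 reads, which limits their precision.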
